A study of Mus musculus with 16 samples.

Results

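The Notch pathway genes followed here were the receptors Notch1, Notch2 and Notch3, the ligands Dll1, Jag1 and Jag2, the target genes Hes1, Hey1 and Heyl, and the inhibitor Numb. These 10 genes, of 24497 in the files, were listed by name, and all 10 had enough counts to be tested. They were measured in poly(A) RNA of C2C12, a line of mouse myoblasts whose cells divide in growth medium and fuse into multinucleated myotubes in differentiation medium. There were 16 libraries, 2 for each of 8 combinations of genotype label (WT, or MYOD-/- made with CRISPR-Cas9 and screened from single cells), stably transfected vector (EV, the control, or one that carries spliced MUNC, a noncoding RNA) and culture (proliferating, GM, or differentiating, DM3, written DM here). Cells of all 8 groups are labelled as skeletal muscle of strain C57BL/6 at postnatal day 21, and all carry 1 of the 2 vectors. The sources used here do not say how many clones each line holds.

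Notch receptors are bound by ligands on a neighbouring cell, are cut by ADAM proteases and then by gamma-secretase, and release an intracellular domain that enters the nucleus. There it joins the DNA-binding protein RBPJ and a Mastermind coactivator and switches on genes of the Hes and Hey families, which encode transcriptional repressors. In skeletal muscle the pathway is known for keeping satellite cells and myoblasts undifferentiated, and Numb is known for restraining the receptors.

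Libraries held 35832002 to 107732971 estimated counts. Levels are given as CPM after TMM scaling (counts scaled to a common library size), which sets a gene against itself across libraries, and as TPM, which corrects for length and sets genes against each other. Changes are log2 fold changes ± SE from edgeR's quasi-likelihood test, and "passed" means a Benjamini-Hochberg adjusted p under 0.05 over 14972 genes. Nothing in the labels ties the 2 libraries of a group to different cultures. The p-values therefore reflect the scatter of these libraries alone, and that scatter may be technical. Myod1, the gene targeted in the MYOD-/- cells, went against the genotype labels, at 0.0136 to 0.291 CPM in the 4 WT-labelled EV libraries and 11.9 to 33.1 CPM in the 4 knockout-labelled EV libraries. The sources used here do not say which part of Myod1 was deleted, so groups are called WT-labelled and knockout-labelled, and every genotype direction below follows the labels. Of the myoblast markers, Myf5 was at 57.6 to 153 CPM. Cdh15, Vcam1 and Des were also present in all 16 libraries, at 1.33, 3.47 and 3.03 CPM where lowest. Pax7, the satellite cell marker, was at 0.118 CPM or less. The splicing factor gene Zrsr1 held 0.00792% to 0.0344% of all counts in replicate 1 libraries and 1.49% to 13% in replicate 2 libraries, so the 2 libraries of every group stood apart.

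The promoters of Dll1 and Jag1, in which the searched E box was found, are shown with that motif marked, and that of Notch3, whose DM and GM libraries did not overlap, is shown beside them. Hes1, Hey1 and Heyl had no window in the table used. The windows are the 250 bases before a RefSeq transcript start (GRCm38.p6), written 5′ to 3′ on the gene's strand, with the E box CAGCTG, a site type bound by MYOD family factors, in capitals. Dll1 is shown for its start at chr17:15376933-15377182 (minus strand), Jag1 at chr2:137116521-137116770 (minus strand) and Notch3 at chr17:32166891-32167140 (minus strand).
Dll1: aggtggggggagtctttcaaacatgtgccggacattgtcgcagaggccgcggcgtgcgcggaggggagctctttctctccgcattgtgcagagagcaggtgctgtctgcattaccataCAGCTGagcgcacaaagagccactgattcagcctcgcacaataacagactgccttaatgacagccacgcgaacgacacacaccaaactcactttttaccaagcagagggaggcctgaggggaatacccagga
Jag1: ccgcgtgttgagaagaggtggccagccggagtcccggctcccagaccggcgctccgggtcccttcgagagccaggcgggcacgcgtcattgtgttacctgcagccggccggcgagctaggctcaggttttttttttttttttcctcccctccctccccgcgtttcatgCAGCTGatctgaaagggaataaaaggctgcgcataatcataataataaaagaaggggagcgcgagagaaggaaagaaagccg
Notch3: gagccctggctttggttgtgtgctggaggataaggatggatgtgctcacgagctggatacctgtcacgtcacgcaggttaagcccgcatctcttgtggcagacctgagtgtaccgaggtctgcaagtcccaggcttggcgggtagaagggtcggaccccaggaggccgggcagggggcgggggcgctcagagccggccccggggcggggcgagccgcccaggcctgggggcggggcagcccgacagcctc
The Dll1 and Jag1 windows each held 1 E box, with its first base 132 and 82 bases before the start. The other 8 of the 10 windows available for 7 members held none, the second Dll1 start included. The RBPJ core TGGGAA was searched on both strands, as was the longer GTGGGAA that contains it, and neither was found in any of the 10 windows. Among all 32851 promoter windows in the RefSeq table, 21.6% held TGGGAA, 5.42% held GTGGGAA and 13% held CAGCTG. These matches describe letters only.

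Notch2 was the most abundant receptor in 14 of the 16 libraries, and Notch3 was above it in the 2 WT-labelled MUNC DM libraries. In TPM Notch2 made up 64.6% to 94.2% of the summed receptor level (Notch1 to Notch4) in the 8 GM libraries. Its share in the 8 DM libraries was 40.4% to 61.4%, where Notch3 took 32.7% to 54.9%. The sum itself was 30.6 to 58.8 TPM in GM and 62.8 to 160 TPM in DM. Notch1 lay between 1.14 and 6.44 TPM. In every line the 2 DM libraries had a larger Notch3 share than the 2 GM libraries of that line.

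Notch2 (chromosome 3, 98013538 to 98150367) stood at 150 and 191 CPM in GM and at 220 and 220 CPM in DM in WT-labelled EV cells. The WT-labelled MUNC cells held 164 and 168 CPM in GM and 266 and 275 CPM in DM. The knockout-labelled EV cells held 234 and 182 CPM in GM and 477 and 485 CPM in DM, and the knockout-labelled MUNC cells 218 and 172 CPM in GM and 438 and 421 CPM in DM. In each of the 4 lines both DM libraries lay above both GM libraries, and the 4 knockout-labelled DM libraries lay above all the others. Notch2 rose with differentiation in the WT-labelled MUNC line (0.70 ± 0.16, adjusted p = 0.00438), the knockout-labelled EV line (1.21 ± 0.16, adjusted p = 0.000149) and the knockout-labelled MUNC line (1.14 ± 0.16, adjusted p = 0.000222). The WT-labelled EV line did not pass (0.37 ± 0.16, adjusted p = 0.0850).

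Notch3 (chromosome 17, 32120820 to 32166896) was the receptor with the widest range. In GM it stood at 29.5 and 12.4 CPM in WT-labelled EV cells, 49.7 and 10.1 CPM in WT-labelled MUNC cells, 67.2 and 4.56 CPM in knockout-labelled EV cells and 59.0 and 2.68 CPM in knockout-labelled MUNC cells, replicate 1 first. In DM the same lines held 110 and 88.0, 223 and 280, 205 and 222, and 213 and 188 CPM. All 8 DM libraries thus lay above all 8 GM libraries, and in GM replicate 1 was the higher of the pair in all 4 lines, by 2.39 to 22.0 times. Without a term for the replicate number no line passed on its own (2.24 ± 1.26 to 3.07 ± 1.30, adjusted p between 0.0826 and 0.187), while the average over the 4 lines did (2.65 ± 0.64, adjusted p = 0.00331). Without the 4 GM libraries of replicate 2 the Notch3 rise was 1.59 to 2.32 over the 4 lines, and without the 4 of replicate 1 it was 3 to 6.18. These settings were chosen after the values were seen. They leave a lone library in each GM group and so drop the scatter in GM, and passing the threshold there would not be informative.

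**Figure D1:**
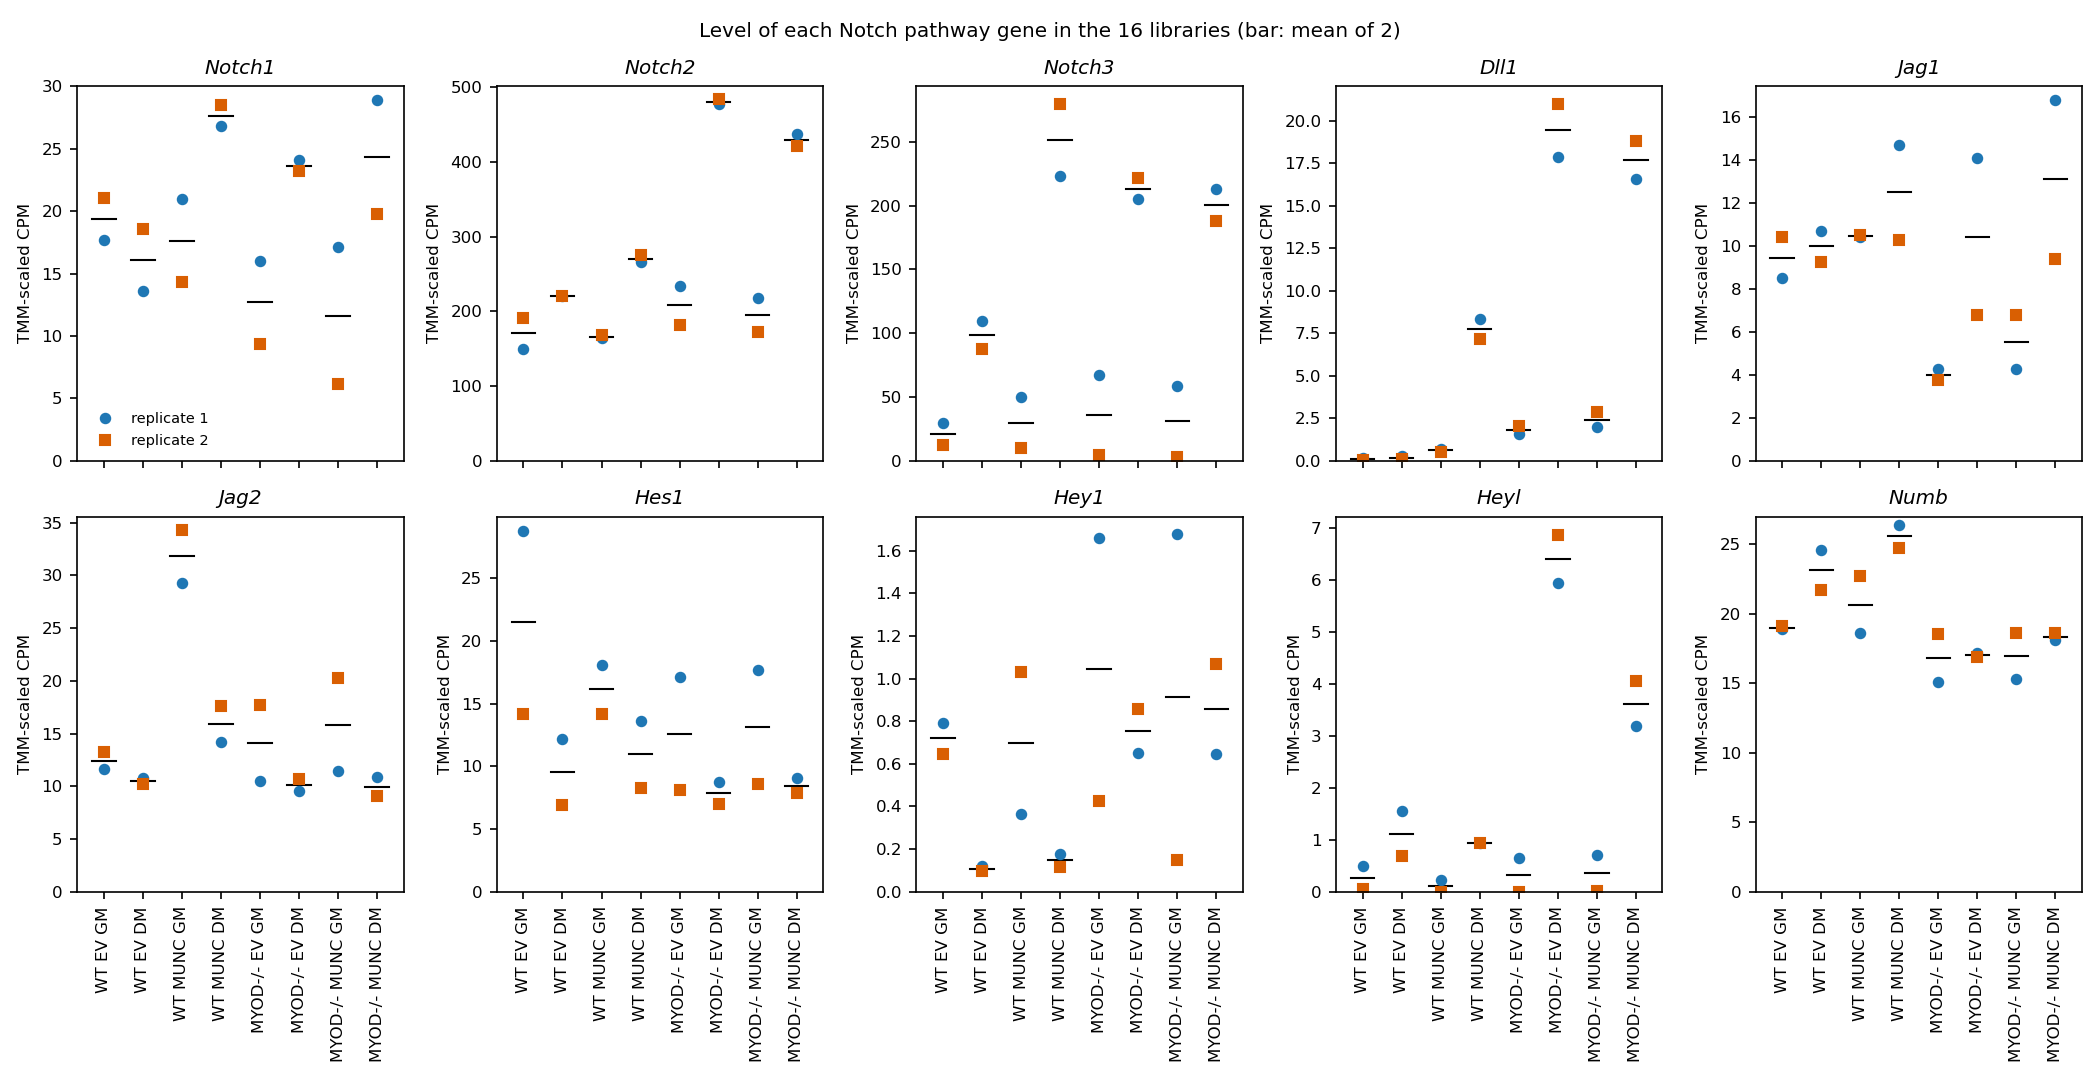
TMM-scaled CPM of each of the 10 genes (vertical axis, linear from 0, a separate scale per gene) in the 8 groups (horizontal axis), with 1 point per library coloured by replicate number and a bar at the mean of 2. Notch2 and Notch3 are high in DM, Dll1 is near 0 in the WT-labelled EV groups, and the 2 GM libraries of Notch3 stand apart in every line.

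The gap between replicate numbers was tested as an effect of its own, a test chosen after the values were seen. In GM, replicate 2 was below replicate 1 for Notch3 (-2.90 ± 0.42, adjusted p = 0.000728), Heyl (-4.54 ± 0.61, adjusted p = 0.000493) and Hes1 (-0.87 ± 0.14, adjusted p = 0.00126). It was above for Jag2 (0.50 ± 0.13, adjusted p = 0.0144) and Numb (0.22 ± 0.08, adjusted p = 0.0459), so 5 of 10 members passed, beside 34.8% of all genes. In DM 0 of 10 members passed with edgeR, the tool used for this test (2 had an unadjusted p under 0.05), beside 0.568% of all genes. The effect of the number differed between DM and GM for Notch3 (2.88 ± 0.55, adjusted p = 0.0115), Heyl (4.43 ± 0.70, adjusted p = 0.00481) and Jag1 (-0.86 ± 0.22, adjusted p = 0.0363), beside 8.78% of all genes. The summed level of the 6 myoblast and muscle markers moved the same way in GM, at 219 to 267 CPM in replicate 1 and 123 to 187 CPM in replicate 2, with Cdh15, the muscle cadherin, at 79.4 to 88.5 and 1.33 to 13.8 CPM. Myf5, another of the 6, went the other way and was higher in replicate 2 in GM in every line. Its range over all 16 libraries was 57.6 to 153 CPM. The part of these markers in the Notch3 and Heyl values was not tested. Of the mural cell markers, a cell type known for high Notch3, Pdgfrb made up most of a summed level of 127 to 732 CPM. Cspg4 stood at 8.54 to 45.8 CPM, while Rgs5, Kcnj8 and Abcc9 were at 0.0982, 0.0611 and 0.134 CPM or less in all 16 libraries.

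**Figure D2:**
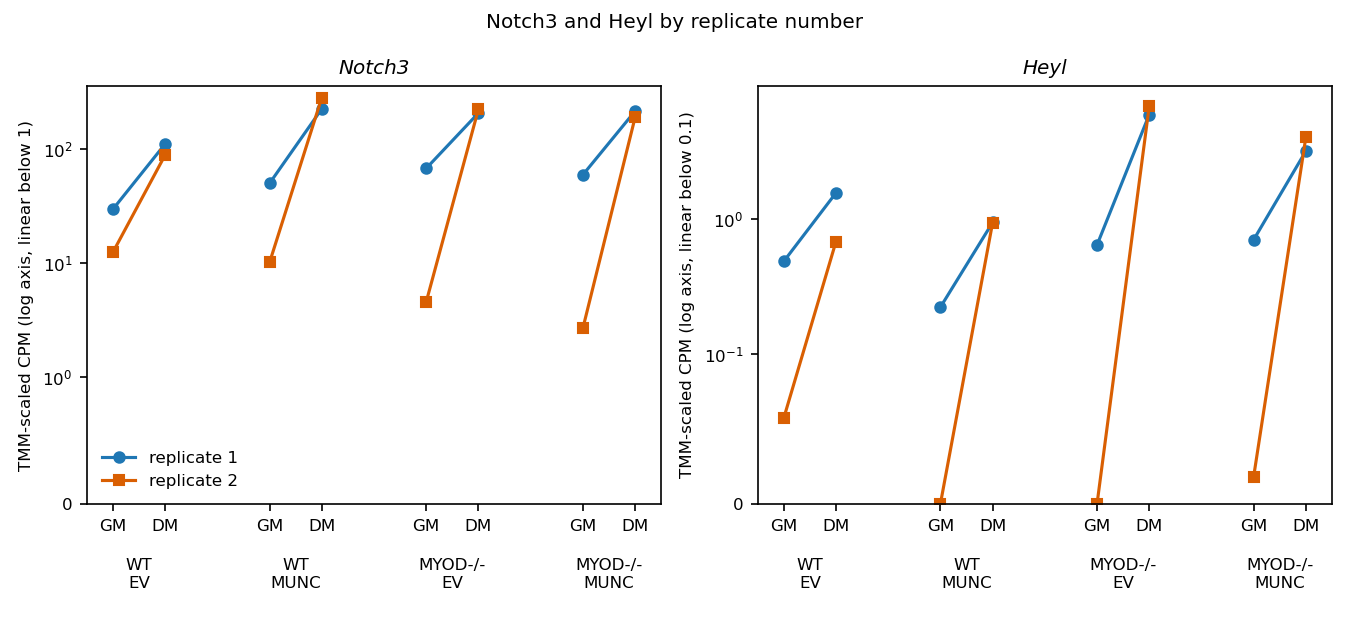
Notch3 (left) and Heyl (right) in GM and DM for each line, in TMM-scaled CPM on a log axis that is linear near 0, with 1 line per replicate number. The 2 numbers are further apart in GM than in DM.

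Notch1 (chromosome 2, 26457902 to 26503822) stood at 6.15 to 21.1 CPM in GM (median 16.6) and 13.6 to 28.9 CPM in DM (median 23.7). The ranges overlapped, and in WT-labelled EV cells DM was at 13.6 and 18.6 CPM against 17.7 and 21.1 CPM in GM. Averaged over the 4 lines Notch1 rose by 0.59 ± 0.20 (adjusted p = 0.0245), a call lost when any 1 of 6 libraries was left out (adjusted p between 0.0542 and 0.0779). Those libraries were the WT-labelled EV GM replicate 1 and DM replicate 2, the WT-labelled MUNC GM replicate 2, the knockout-labelled EV GM replicate 2 and DM replicate 1, and the knockout-labelled MUNC DM replicate 1.

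Among the ligands, Dll1 followed the medium, the genotype label and the vector. Dll1 (chromosome 17, 15367354 to 15376932), which encodes the Delta-like ligand known from muscle progenitors, stood at 0.162 and 0.0381 CPM in GM and 0.263 and 0.109 CPM in DM in WT-labelled EV cells, from 10, 2, 24 and 8 counts. WT-labelled MUNC cells held 0.713 and 0.524 CPM in GM and 8.32 and 7.15 CPM in DM. Knockout-labelled EV cells held 1.55 and 2.03 CPM in GM and 17.9 and 21.0 CPM in DM, and knockout-labelled MUNC cells 1.99 and 2.85 CPM in GM and 16.6 and 18.8 CPM in DM. The 4 knockout-labelled DM libraries were the highest, the 2 WT-labelled MUNC DM libraries came next, and the 4 WT-labelled EV libraries were the lowest of all 16.

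Dll1 rose with differentiation in 3 of the 4 lines, by 3.64 ± 0.40 in WT-labelled MUNC cells (adjusted p = 6.31e-05), 3.44 ± 0.39 in knockout-labelled EV cells (adjusted p = 5.81e-05) and 2.87 ± 0.37 in knockout-labelled MUNC cells (adjusted p = 0.000145). In WT-labelled EV cells the change was 0.86 ± 0.56 (adjusted p = 0.249). The difference between the EV lines in this response did not pass (2.58 ± 0.71, adjusted p = 0.0879), nor did that between the WT-labelled vectors (2.77 ± 0.72, adjusted p = 0.0625). Knockout-labelled EV cells exceeded WT-labelled ones by 4.09 ± 0.49 in GM (adjusted p = 0.00042) and 6.66 ± 0.46 in DM (adjusted p = 5.02e-06). With MUNC the same difference was 1.96 ± 0.39 in GM (adjusted p = 0.00900), lost without the WT-labelled GM replicate 2 (adjusted p = 0.0863). In DM it was 1.19 ± 0.35 (adjusted p = 0.0290), lost when any 1 of the 4 libraries was left out (adjusted p between 0.0757 and 0.184).

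MUNC libraries exceeded EV libraries for Dll1 in WT-labelled cells by 2.56 ± 0.51 in GM (adjusted p = 0.00712) and 5.33 ± 0.44 in DM (adjusted p = 8.17e-06). The GM call was lost with limma on log2(TPM + 1) (0.33, adjusted p = 0.158). In knockout-labelled cells the difference was 0.43 ± 0.37 in GM and -0.14 ± 0.34 in DM, and neither passed. The vector difference in DM was smaller by 5.47 on the log2 scale in knockout-labelled than in WT-labelled cells (-5.47 ± 0.55, adjusted p = 7.74e-05). The corresponding value in GM was -2.13 ± 0.64 (adjusted p = 0.0904). MUNC, listed as Gm45923, reached 1821 to 2670 CPM in the WT-labelled MUNC libraries but 43.0 to 132 CPM in the knockout-labelled ones, so the vector comparisons were not made at matched MUNC levels.

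Levels of other genes are given beside those of Dll1, and their part in the Dll1 values was not tested. Myod1 stood at 3.72 and 4.06 CPM in GM and 3.18 and 1.70 CPM in DM in WT-labelled MUNC cells, above every WT-labelled EV library, but it did not rise from GM to DM there as Dll1 did. Myog, a transcription factor of terminal differentiation, stood at 1.16 and 0.733 CPM in the WT-labelled EV DM libraries, 7.91 and 8.14 CPM in the WT-labelled MUNC ones, 22.0 and 24.2 CPM in the knockout-labelled EV ones and 33.7 and 27.0 CPM in the knockout-labelled MUNC ones. Both genes were lowest in the first of these groups and next lowest in the second, while the knockout-labelled MUNC libraries exceeded the EV ones for Myog but overlapped them for Dll1. The endothelial marker list summed to 0.230 to 0.570 CPM in the 4 WT-labelled DM libraries and to 4.10 to 15.8 CPM in the 4 knockout-labelled ones, mostly Tek. Its defining marker Pecam1 was at 0.251 CPM or less in all 16 libraries and Emcn at 0. Cdh5, an endothelial cadherin, was at 0.0950 CPM or less in WT-labelled libraries and at 0.161 to 6.77 CPM in knockout-labelled ones, highest in the MUNC and EV GM libraries of replicate 2 (6.77 and 2.21 CPM). In bulk RNA a different number of cells that express a gene and a different level per cell cannot be told apart.

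Jag1 and Jag2, the Jagged ligands, moved in opposite directions with the medium when averaged over the 4 lines (0.74 ± 0.18, adjusted p = 0.00363, and -0.59 ± 0.14, adjusted p = 0.00291). Jag1 (chromosome 2, 137081451 to 137116520) stood at 8.52 to 10.5 CPM in WT-labelled GM libraries and 9.28 to 14.7 CPM in WT-labelled DM libraries. In knockout-labelled EV cells it was at 4.26 and 3.76 CPM in GM and 14.1 and 6.78 CPM in DM, and in knockout-labelled MUNC cells at 4.29 and 6.77 CPM in GM and 16.8 and 9.40 CPM in DM. It rose in both knockout-labelled lines (1.38 ± 0.37, adjusted p = 0.0118, and 1.25 ± 0.37, adjusted p = 0.0170). Both calls were lost without the line's DM replicate 1 (adjusted p = 0.182 and 0.194). The EV call was also lost without GM replicate 2 (0.0905) and the MUNC call without GM replicate 1 (0.101).

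Jag2 (chromosome 12, 112907803 to 112929812) was highest in the WT-labelled MUNC GM libraries, at 29.3 and 34.3 CPM, while the other 14 libraries held 9.03 to 20.3 CPM. It was higher with MUNC than with EV in WT-labelled GM cells (1.36 ± 0.28, adjusted p = 0.00933), a call lost without the EV replicate 1 (0.0778) or the MUNC replicate 2 (0.0598). It fell on differentiation of the WT-labelled MUNC line to 14.2 and 17.6 CPM (-1.0 ± 0.28, adjusted p = 0.0155), which was lost without GM replicate 2 (0.0793) or DM replicate 1 (0.107). In GM with MUNC, Jag2 was lower under the knockout label (-1.01 ± 0.28, adjusted p = 0.0451), which was lost without either WT-labelled library (0.0893 and 0.194) or the knockout-labelled replicate 1 (0.167).

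Set side by side in TPM, Jag2 made up 56.3% to 79.7% of the summed ligand level (Dll1, Dll3, Dll4, Jag1 and Jag2) in the 8 GM libraries and the 2 WT-labelled EV DM libraries. Dll1 made up 0.214% to 1.62% of it in the 4 WT-labelled EV libraries. In the 4 knockout-labelled DM libraries Dll1 held 45.5% to 60.8%, the largest share of the 5 ligands in each. The WT-labelled MUNC DM libraries lay between, with 28.2% and 24.9% from Dll1. The summed ligand level was 7.29 to 18.6 TPM in GM and 8.20 to 23.3 TPM in DM.

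**Figure D3:**
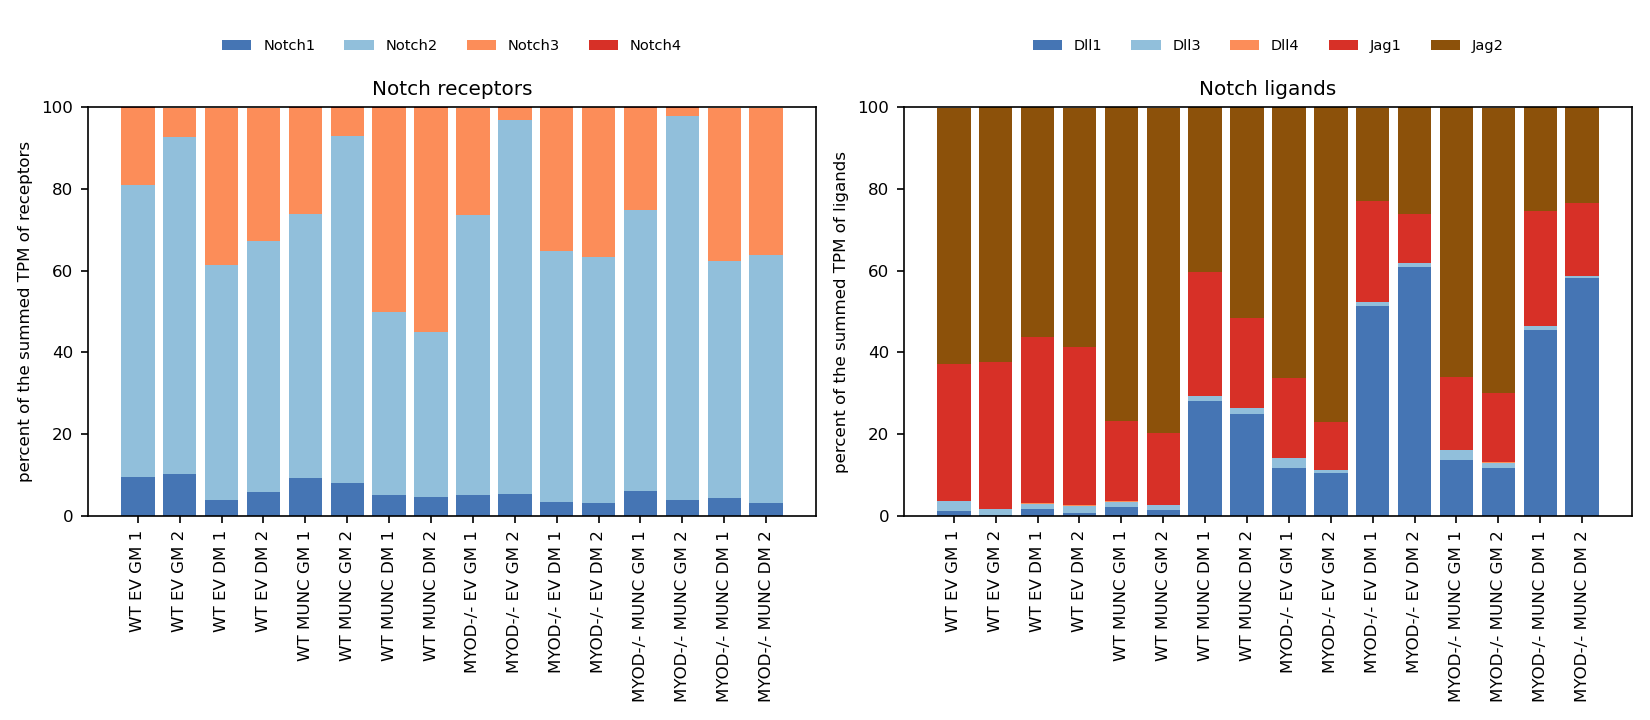
Percent of the summed TPM of the Notch receptors (left) and ligands (right) that each gene contributed, with 1 stacked bar per library named by its labels and replicate number. Notch3 takes a larger part in DM, and Dll1 takes 45.5% to 60.8% of the ligand level in the knockout-labelled DM libraries.

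The 3 target genes did not move together. Hes1 (chromosome 16, 30065357 to 30067796), the most abundant of them at 9.76 to 37.2 TPM, was lower in DM than in GM within every line and replicate number, in 8 of 8 pairs. It stood at 28.8 and 14.2 CPM in GM and 12.2 and 6.91 CPM in DM in WT-labelled EV cells. Without a term for the replicate number no line passed on its own, and the average over lines fell (-0.76 ± 0.24, adjusted p = 0.0135), a call lost with limma on log2(TPM + 1) (-0.47, adjusted p = 0.107). Replicate 1 was above replicate 2 in all 8 groups. Without the 4 GM libraries of replicate 1 the Hes1 change was -0.29 (adjusted p = 0.196).

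Hey1 (chromosome 3, 8663359 to 8667038) was at 0.0950 to 1.68 CPM, from 7 to 110 counts a library. In WT-labelled DM libraries it was at 0.0950 to 0.177 CPM, below the 4 knockout-labelled ones at 0.644 to 1.07 CPM. Without a term for the replicate number the genotype comparisons did not pass (2.78 ± 1.00, adjusted p = 0.0546 with EV, and 2.59 ± 0.98, adjusted p = 0.0807 with MUNC). With that term in edgeR the EV comparison passed (2.83, adjusted p = 0.0438). The average over lines fell (-1.39 ± 0.46, adjusted p = 0.0200). By line it was -2.71 ± 1.00 and -2.28 ± 0.99 under the WT label and -0.46 ± 0.88 and -0.10 ± 0.85 under the knockout label, EV first. No line passed without the replicate term, and the WT-labelled EV line passed with it (-2.72, adjusted p = 0.0451). In both knockout-labelled lines Hey1 was higher in DM than in GM in replicate 2 and lower in replicate 1. Without the 4 GM libraries of replicate 1 the average was -0.55 (adjusted p = 0.101). The call was also lost without the WT-labelled MUNC GM or DM replicate 2 (0.0561 and 0.0521), without the knockout-labelled EV or MUNC GM replicate 1 (0.0575 and 0.106), and with limma (adjusted p = 0.277).

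Heyl (chromosome 4, 123233556 to 123249870) was a low gene in GM, at 0.222 to 0.702 CPM in replicate 1 and 0 to 0.0572 CPM in replicate 2. The 2 libraries with 0 counts could hold up to 0.0542 and 0.0752 CPM, from the limit of 3 counts, which covers counting error only. In DM it stood at 1.56 and 0.679 CPM (WT-labelled EV), 0.942 and 0.938 CPM (WT-labelled MUNC), 5.94 and 6.88 CPM (knockout-labelled EV) and 3.19 and 4.05 CPM (knockout-labelled MUNC). The 4 knockout-labelled DM libraries were the highest of the 16. Heyl rose in knockout-labelled EV cells (4.33 ± 1.39, adjusted p = 0.0265), but this did not hold without GM replicate 2 (0.123), DM replicate 1 (0.0646) or DM replicate 2 (0.0756), and on average over the lines (3.16 ± 0.68, adjusted p = 0.00153). Heyl was higher in DM in 8 of 8 pairs of the same line and replicate number. With a term for the replicate number in edgeR it also passed in the WT-labelled MUNC line (3.3, adjusted p = 0.0445) and the knockout-labelled MUNC line (3.7, adjusted p = 0.012). Because replicate 2 was at or near 0 in GM, the GM means behind these folds rest mainly on replicate 1. The genotype label in DM with EV passed with that term (2.75, adjusted p = 0.0371) but not without it (2.51 ± 1.21, adjusted p = 0.137).

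Numb (chromosome 12, 83794034 to 83921942), whose protein directs the Notch receptors to endocytosis, was the steadiest member, at 15.1 to 26.4 CPM. It was lower in knockout-labelled than in WT-labelled DM libraries, at 17.2 and 16.9 against 24.6 and 21.7 CPM with EV (-0.44 ± 0.15, adjusted p = 0.0424) and at 18.1 and 18.6 against 26.4 and 24.7 CPM with MUNC (-0.48 ± 0.15, adjusted p = 0.0398). The libraries did not overlap in either comparison, but both calls were lost when any 1 of their 4 libraries was left out (adjusted p from 0.0584 to 0.158 with EV and from 0.112 to 0.159 with MUNC). The 2 genotype calls were also lost with limma (adjusted p = 0.188 with EV and 0.132 with MUNC). An effective length offset lost the EV call (0.0507) and no filter the MUNC call (0.0657). The average rise with differentiation, 0.18 ± 0.07 (adjusted p = 0.0497), was lost without any 1 of 15 libraries. It was also lost with DESeq2 (0.0579), its size factors in edgeR (0.068), no filter (0.123) and the 5 CPM filter (0.0696). Without the 4 GM libraries of replicate 1 the rise was 0.04. Of the 6 Numb transcripts counted, 1 annotated as noncoding held 64.3% to 88.6% of the gene's TPM (median 72.3%) and 2 were listed at 0. The assignment of reads among transcripts that share exons is an estimate, so the coding part of Numb is uncertain.

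Counted over the members, differentiation moved 0 of 10 in the WT-labelled EV line by edgeR (3 at an unadjusted p under 0.05, 2 passing with DESeq2 and 1 with limma), where 19.2% of all genes rose and 18.3% fell. In the WT-labelled MUNC line 2 rose and 1 fell, beside 20.5% and 19.2% of all genes. In the knockout-labelled EV line 4 rose and 0 fell, beside 23.5% and 19.7%, and in the knockout-labelled MUNC line 3 rose and 0 fell, beside 24.4% and 20.4%. Averaged over the 4 lines 7 rose and 3 fell, beside 36.3% and 30.4%. The members' median log2 change over the lines was 0.66, against 0.07 for all genes. Without the 4 GM libraries of replicate 2, or those of replicate 1, each GM group holds a lone library. Counts from those fits are not given.

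**Figure D4:**
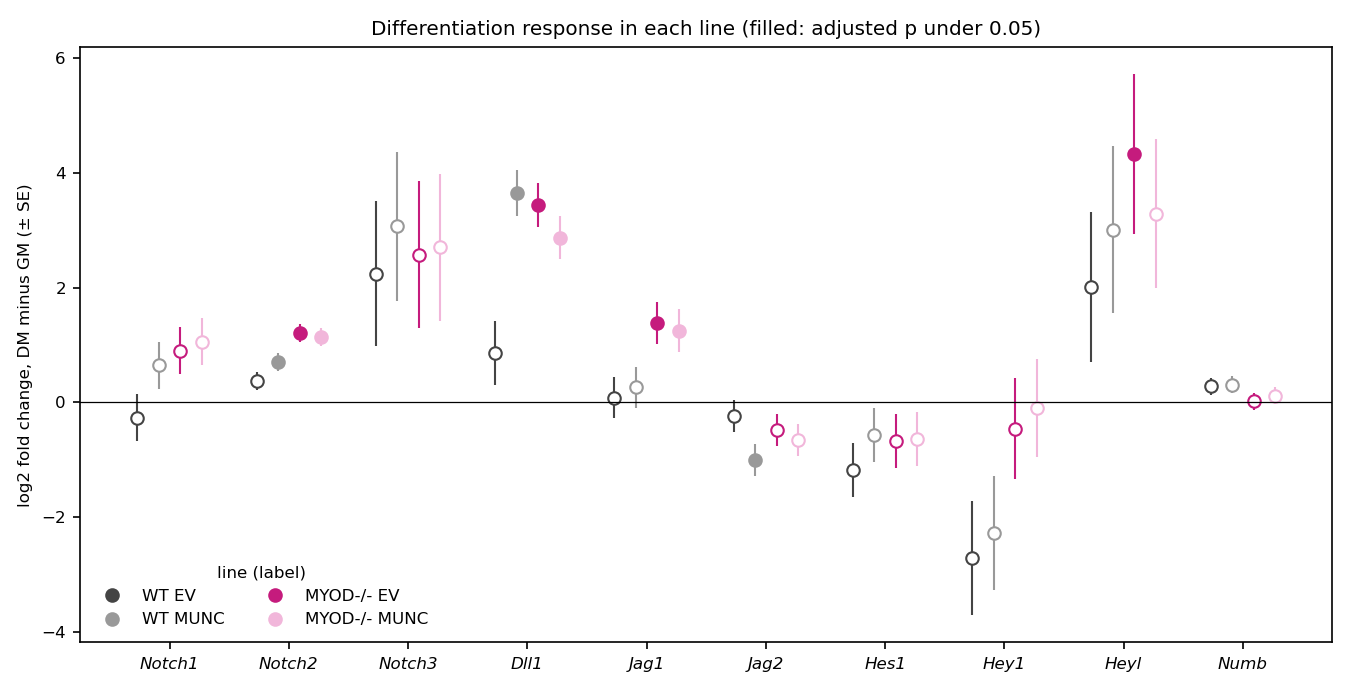
Log2 fold change of DM over GM (vertical axis, ± SE) for the 10 genes in the 4 lines, with filled points for an adjusted p under 0.05. Dll1 and Notch2 are filled in 3 of the 4 lines, and the SE of Notch3 and Heyl is over 1 in each line.

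Under the knockout label 1 member was higher and 0 lower in GM with EV, beside 4.58% and 5.77% of all genes. In DM with EV 2 were higher and 1 lower, beside 15.3% and 16.1%. With MUNC it was 1 and 1 in GM, beside 4.98% and 5.02%, and 2 and 1 in DM, beside 12.8% and 9.89%. Dll1 was among the higher members in all 4, and Notch2 was the other in DM, by 1.13 ± 0.16 with EV (adjusted p = 0.000404). With MUNC it was higher by 0.67 ± 0.16 (adjusted p = 0.0102), a call lost without either WT-labelled library (0.0763 and 0.0622) or the knockout-labelled replicate 1 (0.0566). Notch3 in GM turned with the replicate number. Without the GM libraries of replicate 2 the difference with EV (knockout-labelled minus WT-labelled) was 1.24, and without those of replicate 1 it was -1.41. Each sets a lone library against another, so no p-value is given.

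With MUNC against EV, 2 members were higher and 0 lower in WT-labelled GM cells, beside 6.04% and 7.71% of all genes, and 1 and 0 in WT-labelled DM cells, beside 15.6% and 17.7%. In knockout-labelled cells 0 members passed in GM and 0 in DM with edgeR, DESeq2 or limma, and 0 had an unadjusted p under 0.05. Of all genes 0% passed in each direction with edgeR, and 1.28% (GM) and 1.02% (DM) had an unadjusted p under 0.05. Among the differences between responses, 0 members passed for differentiation by genotype label with EV (2.58% of all genes) or MUNC (1.38%), by vector under the WT label (3.33%) or the knockout label (0%), and for MUNC by genotype label in GM (4.93%). Only Dll1 passed for MUNC by genotype label in DM, beside 18.1% of all genes. With an unadjusted p under 0.05 the first 5 counts were 3, 0, 1, 0 and 2, and with DESeq2 they were 2, 0, 1, 0 and 2.

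The wider pathway was described from a list of 58 other Notch pathway genes, of which 50 were tested. With differentiation, averaged over the lines, 25 of 50 rose and 7 fell, beside 36.3% and 30.4% of all genes (median 0.20, against 0.07 for all genes). The largest rises among genes with a mean of at least 5 CPM were those of Dtx3l, an ubiquitin ligase of the Deltex family that is also interferon-responsive (5.14 ± 0.25), Dtx4, another Deltex ligase (2.55 ± 0.25), Tle2, a Groucho corepressor (2.18 ± 0.22), and Maml2, a Mastermind coactivator (1.40 ± 0.13). The largest falls under the same limit were those of Rbpj, the DNA-binding partner of the receptors (-0.77 ± 0.13), Neurl1b, a ligase for ligands (-0.72 ± 0.23), Lfng, a Fringe glycosyltransferase that modifies the receptors (-0.65 ± 0.16), and Hdac1, a histone deacetylase of corepressor complexes (-0.37 ± 0.07). The Neurl1b and Hdac1 calls were lost with limma (0.0545 and 0.0989), and Neurl1b was also lost without the 4 GM libraries of replicate 2 (0.145). The noncanonical ligand gene Dlk2, just under that limit with a mean of 4.84 CPM, fell by more (-4.14 ± 0.56, adjusted p = 5.18e-05), and was named after its values were seen. Rbpj stood at 225 to 399 CPM in GM and 149 to 213 CPM in DM, without overlap. By line, the Lfng fall passed only in WT-labelled EV cells (-1.59 ± 0.33, adjusted p = 0.00339).

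**Figure D5:**
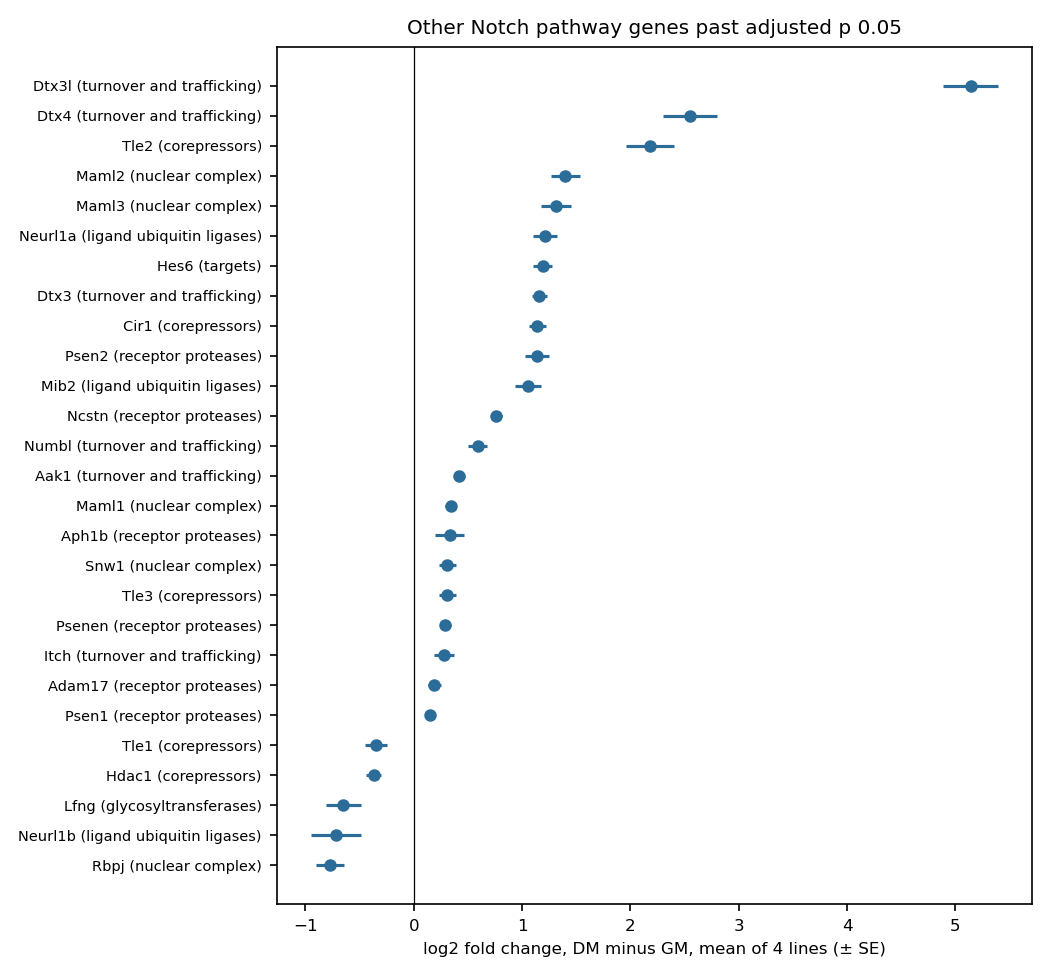
Log2 fold change of DM over GM averaged over the 4 lines (horizontal axis, ± SE) for the other Notch pathway genes with a mean of at least 5 CPM and an adjusted p under 0.05, with the role of each gene in brackets. Dtx3l lies at 5.14, and Rbpj and Lfng are among the genes below 0.

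Between genotype labels, 10 of the 50 other genes were higher and 2 lower in DM with EV, beside 15.3% and 16.1% of all genes, and 3 and 5 in DM with MUNC, beside 12.8% and 9.89%. In GM it was 3 and 4 with EV, beside 4.58% and 5.77%, and 3 and 5 with MUNC, beside 4.98% and 5.02%. Lfng stood at 12.9 and 11 CPM in knockout-labelled and 3.66 and 2.67 CPM in WT-labelled EV DM libraries (1.91 ± 0.34, adjusted p = 0.00158). Psen2, a catalytic subunit of gamma-secretase, was also higher there (1.01 ± 0.22, adjusted p = 0.00562). The calls of Furin, the convertase that cleaves the receptor precursor (1.19 ± 0.33), of the ligase Neurl1a (0.92 ± 0.23) and of Snw1, a nuclear cofactor that was lower (-0.62 ± 0.16), were each lost without at least 1 library (adjusted p up to 0.117, 0.102 and 0.0902).

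With MUNC against EV in WT-labelled DM cells 12 of the 50 were higher and 1 lower, beside 15.6% and 17.7% of all genes. Lfng was at 16.2 and 21.4 CPM with MUNC (2.57 ± 0.34, adjusted p = 0.000224), above both EV libraries. Numbl, the Numb-like homolog (1.19 ± 0.19, adjusted p = 0.000697), and Neurl1a (1.11 ± 0.23, adjusted p = 0.00332) were also higher, while the Furin call (1.18 ± 0.33, adjusted p = 0.0189) was lost without any 1 of the 4 libraries (adjusted p between 0.0554 and 0.114). Dtx3l was the 1 lower gene, at 5.63 and 4.18 against 202 and 254 CPM (-5.54 ± 0.49, adjusted p = 1.28e-05). The vector difference in DM differed between genotype labels for Lfng (-2.78 ± 0.46, adjusted p = 0.00209), Numbl (-1.24 ± 0.26, adjusted p = 0.00797) and Dtx3l (5.44 ± 0.61, adjusted p = 0.000155). In knockout-labelled cells MUNC moved 0 of the 50 with edgeR in GM and in DM, beside 0 of all 14972 genes in each.

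By Pearson correlation of log2 CPM over the 16 libraries, the genes nearest to Dll1 were Gabarapl2 (0.974) and Trim2 (0.967), and those nearest to Notch2 were Iffo1 (0.983) and Kif3c (0.967). Notch3 was nearest to Ttc30b (0.989) and Tgm5 (0.974), and Heyl to Tnnt1, slow troponin T, and Cmtm6 (0.967 each). Notch1 was nearest to Ehd3 (0.916) and Vegfd (0.910), Jag1 to Dnmt3a (0.879) and Ptprm (0.852), Jag2 to Cap1 (0.950) and Npepl1 (0.921), Hes1 to Npcd (0.948) and Fkbp3 (0.917), and Numb to H2bc4 (0.935) and Lhx6 (0.905). These points share groups, media and replicate numbers, and the values are a description.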

How the data were processed

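Poly(A) RNA of 16 C2C12 libraries was sequenced, and the tools were kallisto and bcl2fastq with mm10, per the submitters' processing notes. The sources used here give neither versions nor a strand setting, so reads of genes that overlap on opposite strands could have been assigned to either. Per the file headers, the authors deposited estimated counts, effective lengths and TPM for 35818 transcripts per library. Estimated counts and TPM were summed over transcripts by symbol, taken from RefSeq (GRCm38.p6) for 35492 transcripts and from GENCODE names for 188, which gave 24497 genes, and the 138 transcripts without a symbol (0.280% to 0.941% of the counts) were left out. Coordinates are those of GRCm38, counted from 1. Counts were rounded and tested in edgeR 4.0.16 (R 4.3.3) after TMM scaling. The filterByExpr rule kept 14972 genes. The model had a mean per group and all 16 libraries in 1 fit (8 residual degrees of freedom).

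Comparisons were DM minus GM, knockout-labelled minus WT-labelled, MUNC minus EV, and their differences. On simulated counts for differentiation of the WT-labelled EV line (14972 genes, 200 changed), 56% of 2-fold and 100% of 4-fold changes were recovered, with 4.29% false calls. Simulated counts were drawn independently, with the scatter typical of a gene's level and no effect of the replicate number. These rates therefore do not apply to genes with scatter like that of Notch3 and Heyl in GM. Alternatives were DESeq2 1.42.0, its size factors within edgeR, no filter, a filter of 5 CPM in 2 libraries, an effective length offset, limma 3.58.1 on log2(TPM + 1), a replicate block and each library left out. Members, lists and motifs were chosen with earlier results of these data known. Named were the 10 members, up to 4 other pathway genes each way with the largest change (mean of at least 5 CPM), and the 2 nearest genes of each member with a mean of at least 1 CPM.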

Additional observations from a re-analysis of the deposited data

Results flagged for a closer look

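Dll1 differed between genotype labels in its response to the vector. In DM cells MUNC exceeded EV by 5.33 ± 0.44 under the WT label and differed by -0.14 ± 0.34 under the knockout label, a difference of -5.47 ± 0.55 (edgeR adjusted p = 7.74e-05). It kept its call with every alternative test, scaling, filter and left-out library. The vector RNA was at 1821 to 2670 CPM in WT-labelled and 43.0 to 132 CPM in knockout-labelled MUNC libraries.

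For 3 members the gap between replicate numbers (2 minus 1) differed between DM and GM libraries, by edgeR. It differed by 2.88 ± 0.55 for Notch3 (adjusted p = 0.0115) and by 4.43 ± 0.70 for Heyl (adjusted p = 0.00481). Both were lower in replicate 2 in all 4 GM groups. For Jag1 it differed by -0.86 ± 0.22 (adjusted p = 0.0363), with replicate 2 lower in all 4 DM groups. The sources used here do not say what the number stands for.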

How the results depend on the processing

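Of 33 calls of a member in a comparison, 19 were kept when each library was left out in turn. Counts over all genes moved too. For WT-labelled EV differentiation 5619 of 14972 genes passed with edgeR, 6003 with DESeq2, 5663 with limma and 6895 with the replicate block. In the WT-labelled MUNC line these were 5956, 6365, 6116 and 7112, and in the knockout-labelled MUNC line 6707, 7025, 7228 and 7923. With no filter 5240 (WT-labelled EV) and 6353 (knockout-labelled MUNC) of 20700 genes passed. The member counts below describe the settings only. The number of members called is given for edgeR and then for each alternative that moved it by over 1.5 times. The cause was not tested. For differentiation of the WT-labelled EV line it was 0, against 2 with DESeq2, 1 with no filter, 1 with limma on TPM, 2 with the replicate block and 0 to 2 with a library left out. For the WT-labelled MUNC line it was 3, against 5 with DESeq2, 5 with limma and 6 with the replicate block, and for the knockout-labelled MUNC line 3, against 5 with DESeq2, 5 with no filter, 6 with limma, 7 with the replicate block and 2 to 7 with a library left out. For the knockout-labelled EV line it was 4, against 2 to 6 with a library left out. For the genotype label it was 1 in GM with EV, against 2 with DESeq2, 2 with no filter and 3 with the replicate block; 3 in DM with EV, against 5 with the replicate block; 2 in GM with MUNC, against 1 with the 5 CPM filter and 0 to 2 with a library left out; and 3 in DM with MUNC, against 0 to 1. For MUNC in WT-labelled GM cells it was 2, against 1 with limma and 1 to 2 with a library left out. For differences it was 0, against 2, 3 and 1 with DESeq2, limma and the replicate block (differentiation by genotype, EV), 1 and 1 with DESeq2 and limma and 0 to 1 with a library left out (differentiation by vector, WT label), and 2 with DESeq2 and 0 to 1 with a library left out (MUNC by genotype, GM).

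Leaving out the 4 GM libraries of replicate 2, or those of replicate 1, was chosen after the data were seen. Each GM group then holds a lone library that is assumed to vary like the DM groups. Counts of calls from these fits are not given, because the fits hold no scatter within GM groups. Some values turned in sign. Hey1 in the knockout-labelled MUNC line was -0.10, ranging from -1 to 2.55 with a library left out (2.55 without GM replicate 1) and 2.5 without all 4 such libraries. Without those 4 Notch3 was -1.41 (genotype, GM, EV), -1.91 (genotype, GM, MUNC) and 1.58 (differentiation by genotype, MUNC), and Hey1 was -2.8 (genotype, GM, MUNC).

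The labels do not say what the replicate numbers share. Deviations of same-numbered libraries correlated between -0.013 and 0.712 over 28 pairs of groups, with 23 over 0.1 and the 6 pairs of GM groups at 0.508 to 0.712. The libraries of a number thus moved together in GM, but not in every pair of groups. The main model held no term for the number, and some values that did not pass depend on that choice. Tested with edgeR over all libraries as a block, the number passed for 14.3% of all genes. Hes1 was the only member among them (-0.69 ± 0.11, adjusted p = 0.0098). The replicate block lost 0 of the 33 calls and added 15. Among these was differentiation for Notch3 in the WT-labelled MUNC (3.62, adjusted p = 0.019), knockout-labelled EV (3.26, 0.0287) and knockout-labelled MUNC (3.36, 0.0244) lines, and for Hes1 in the WT-labelled EV (-1.15, 0.00179) and MUNC (-0.6, 0.0461) lines. The 5 CPM filter removed Hey1, which has no value there. Depth limits Dll1 in WT-labelled EV cells (2 to 24 counts), Hey1 and Heyl in GM.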
